A study of Homo sapiens with 24 samples.

Results

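Chromosome 13 carried a regional difference between both MIA PaCa-2 lines of the study. Its members are the protein-coding genes of this chromosome with at least 10 counts in at least 3 of the 24 libraries, after 13 genes were left out by name. The table held 317 protein-coding genes of chromosome 13, of which 201 reached the minimum and 188 remained as members. Of these, 172 reached it in all 24 libraries, while 3 reached it in fewer than 3 CTRL libraries and 4 in fewer than 3 CEBPD libraries. In such members the minimum can favour a difference between the lines, and they are kept in the counts of calls. The last genes inside the minimum were FREM2 and FRY, with 4 libraries each and at most 13 and 23 counts, and the first outside was ALOX5AP, with 2 libraries and at most 17 counts, followed by 8 genes with 1 library each. The genes were selected on their counts and position, and the chromosome itself was chosen by the measured difference between the lines. That difference, its calls included, is therefore given as a description that supports nothing further, and the tests that did not use it are those of changes with time.

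MIA PaCa-2 is a human pancreatic carcinoma cell line. The CTRL cells carried a doxycycline-inducible Tet-On construct without cDNA and the fluorophore mCherry, and the C/EBPδ-inducible cells, labelled CEBPD, carried a Tet-On construct with the CEBPD cDNA and the fluorophore mVenus. The inducible cells were derived from a small number of clones. Each line was sampled at 0, 8, 24 and 48 h of doxycycline at 2 µg/mL, with 3 libraries per group. The labels give this dose for the 0 h samples too, while the study's methods describe untreated cells, and 0 h was taken as untreated here. The 3 libraries of a group came from replicate wells, which the study calls biological triplicates. The p-values measure the spread between these wells, which may be technical. Clone, fluorophore, construct and CEBPD level all differ between the lines and cannot be told apart in a contrast of lines. In these bulk samples, fewer cells of a type and less RNA per cell cannot be told apart either.

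Library totals ran from 12731237 to 22598595 counts. The CEBPD transcript stood between 1.32 and 4.43 counts scaled to library size (CPM, with TMM-scaled totals) in the CTRL libraries, between 18.9 and 23.5 in CEBPD cells at 0 h, and between 200.0 and 322 in them at 8, 24 and 48 h. The epithelial keratin KRT8 was present in both lines but ranged from 1005 to 1594 CPM in CTRL and from 34.5 to 76.3 in CEBPD cells, while EPCAM, CDH1 and KRT7 did not exceed 6.21 CPM in any library. Among markers of other cells, PTPRC (leukocytes) reached at most 1 count and PECAM1 (endothelium) at most 6. Of the fibroblast markers, COL1A2 ranged from 449 to 688 CPM in CTRL and from 135 to 253 in CEBPD cells, whereas COL1A1 stood between 0.18 and 1.10 in CTRL and between 0.21 and 1.86 in CEBPD cells. The part of these differences in the regional pattern was not tested.

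Chromosome 13 is acrocentric: its short arm holds ribosomal RNA repeats, so the protein-coding genes lie on the long arm. The long arm carries the tumour suppressor RB1 and the repair gene BRCA2 towards the centromere, and the collagen genes COL4A1 and COL4A2 and the insulin receptor substrate IRS2 towards the telomere. C/EBPδ is a basic leucine zipper factor that binds DNA as a dimer.

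Promoter windows were read because the lines differ in CEBPD. RefSeq promoter windows of GRCh38.p14, 250 bases before to 50 after the start, were matched by symbol for 160 of the 188 members. The C/EBP-type motif TTGCNNAA was searched on both strands, the other strand read as its reverse complement, and matches can overlap each other. It was found in 7 of the 160 windows (4.38%) and in 10.5% of all 35116 windows of that length. The first share takes a single window per member, and the second takes every window, which can be several per gene. The shares are thus of unlike sets, and a difference between them was not tested. The 7 members are ARGLU1, EBPL, MICU2, NEK5, PCCA, UTP14C and ZIC5. Member windows had a median CpG ratio, observed over expected, of 0.868 against 0.579 for all windows. The windows of the genes with the largest fitted difference in each direction and of both members among those named by rule that hold a match are shown from 5′ to 3′ on the strand of the gene, with the match in capitals.
THSD1 (chr13:52406123-52406422, minus strand): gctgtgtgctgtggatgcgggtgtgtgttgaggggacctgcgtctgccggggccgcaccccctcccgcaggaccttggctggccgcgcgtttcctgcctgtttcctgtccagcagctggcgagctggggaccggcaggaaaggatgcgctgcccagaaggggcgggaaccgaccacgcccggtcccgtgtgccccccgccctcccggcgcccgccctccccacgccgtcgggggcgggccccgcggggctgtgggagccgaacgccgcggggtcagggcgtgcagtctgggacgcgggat
ITGBL1 (chr13:101452425-101452724, plus strand): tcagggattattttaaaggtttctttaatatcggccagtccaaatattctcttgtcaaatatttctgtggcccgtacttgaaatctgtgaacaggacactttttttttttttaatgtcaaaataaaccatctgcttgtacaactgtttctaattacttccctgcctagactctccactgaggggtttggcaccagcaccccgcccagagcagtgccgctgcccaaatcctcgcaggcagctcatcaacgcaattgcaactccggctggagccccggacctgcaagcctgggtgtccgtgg
NEK5 (chr13:52129024-52129323, minus strand): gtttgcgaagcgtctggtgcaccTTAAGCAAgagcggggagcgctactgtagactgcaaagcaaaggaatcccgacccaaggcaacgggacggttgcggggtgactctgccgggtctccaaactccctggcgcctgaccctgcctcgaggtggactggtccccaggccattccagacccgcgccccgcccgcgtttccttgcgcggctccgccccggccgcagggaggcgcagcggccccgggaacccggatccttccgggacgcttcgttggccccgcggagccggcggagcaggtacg
ARGLU1 (chr13:106568088-106568387, minus strand): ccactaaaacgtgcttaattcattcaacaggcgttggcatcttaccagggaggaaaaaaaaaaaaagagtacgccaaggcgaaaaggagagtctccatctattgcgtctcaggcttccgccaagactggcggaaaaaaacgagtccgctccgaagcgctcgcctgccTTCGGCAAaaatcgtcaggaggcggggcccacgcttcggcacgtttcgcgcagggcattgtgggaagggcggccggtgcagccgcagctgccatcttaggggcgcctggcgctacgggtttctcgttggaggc
THSD1 and ITGBL1 have no match in these windows. A match is a run of letters and was not tested as a binding site.

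Members near the centromere were mostly lower in CEBPD than in CTRL cells, and members near the telomere were mostly higher. Of the 122 members that start below 70 Mb of GRCh38, 99 were called lower in CEBPD cells, 11 were called higher and 12 were not called. Of the 66 members beyond 70 Mb, 9 were called lower, 37 higher and 20 were not called. The median log2 fold change (CEBPD over CTRL, mean of the 4 line differences) was -0.40 below 70 Mb, a ratio of 0.758, with quartiles of -0.58 and -0.19. Beyond 70 Mb it was 0.15, a ratio of 1.11, with quartiles of -0.04 and 0.34. The 70 Mb line was set after the values were seen, at the edge of a run of 10 Mb bins, and is therefore only descriptive. A call is a false discovery rate (FDR) under 0.01 in edgeR's quasi-likelihood test, adjusted over all genes tested.

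**Figure D1:**
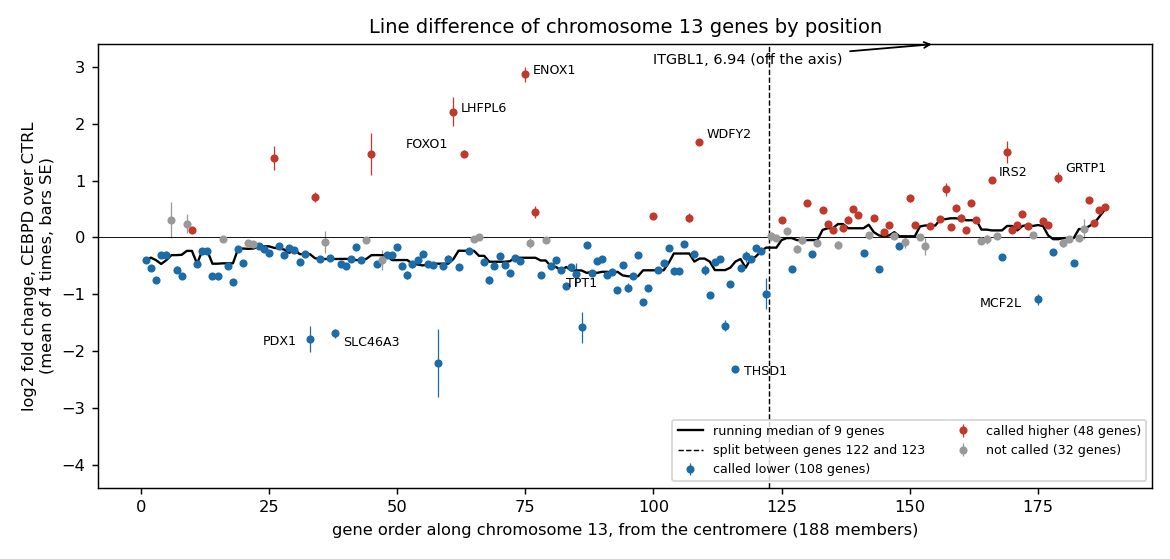
Log2 fold change between the lines (CEBPD over CTRL, mean of 4 times) for the 188 members in order along chromosome 13. Points are genes with bars for the standard error, coloured by call, and the black line is the running median of 9 neighbouring genes. The points lie mostly below 0 for the first 122 genes and mostly above 0 for the last 66, with ITGBL1 beyond the axis. The fitted values of ENOX1 and ITGBL1 depend on the prior count, since all CTRL libraries had under 3 counts at 0 h and at 8 h, respectively.

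Over the whole chromosome 108 of 188 members were called lower and 48 higher in the mean of the 4 times (a description, as above), beside 29.1% lower and 29.9% higher among all 17023 genes tested. Among the 12140 other protein-coding genes tested, the background was 34.4% lower and 34.5% higher. The median of the members was -0.24, against 0.02 over all genes tested. At 0 h 95 of 178 members tested were called lower and 28 higher, with backgrounds of 23.9% and 20.0%. At 8 h the counts were 59 lower and 33 higher of 184, with backgrounds of 17.4% and 14.3%. At 24 h they were 104 lower and 32 higher of 182, with backgrounds of 25.3% and 21.5%, and at 48 h 87 lower and 24 higher of 182, with backgrounds of 20.7% and 17.6%. Without replicate 2 of the CEBPD cells at 8 h, the 8 h counts became 38 lower and 19 higher. The shares over all genes in that fit are not given.

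The medians on either side of 70 Mb had the same direction at every time, 0 h included. Below 70 Mb the medians were -0.39, -0.31, -0.46 and -0.45 at 0, 8, 24 and 48 h, and beyond 70 Mb they were 0.10, 0.25, 0.11 and 0.09. Across all 4 times 50 members were called lower at each time, of which 47 lie below 70 Mb, and 17 were called higher at each time, of which 15 lie beyond it. Among the 14802 genes tested at all 4 times, 13% were called lower at each and 8.86% higher at each. No member was called lower at one time and higher at another, and 36 members were called at no time. Between pairs of times, which share no library, the fold changes of 177 members correlated with a Pearson r of 0.82 to 0.95, given as a description across genes that are not independent replicates. These members include ITGBL1, whose large fitted value rests on CTRL counts near the floor, and r without it is not given.

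Single libraries separated in the same way. In 46 members all 12 CEBPD libraries lay below all 12 CTRL libraries, against 9.25% of all genes tested, and in 17 members they lay above, against 6.37% of all genes. Of these, 43 of the 46 lie below 70 Mb and 15 of the 17 beyond it. The score of a library was the median over members of log2(CPM + 1) minus the CTRL mean of the same time. Over the members below 70 Mb it ran from -0.46 to -0.27 in the CEBPD libraries and from -0.11 to 0.11 in the CTRL libraries, without overlap. Beyond 70 Mb it ran from 0.053 to 0.30 in the CEBPD libraries and from -0.055 to 0.069 in the CTRL libraries, so that those ranges overlapped narrowly.

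Described in fixed bins of 10 Mb, the 6 bins from 10 to 70 Mb all had medians below 0. They were -0.47 at 10 to 20 Mb (4 members), -0.27 at 20 to 30 Mb (35 members), -0.40 at 30 to 40 Mb (23 members) and -0.49 at 40 to 50 Mb (43 members). The next were -0.38 at 50 to 60 Mb (15 members) and -0.61 at 60 to 70 Mb, where only 2 members, TDRD3 and PCDH9, start. TDRD3 had a log2 fold change of -0.24 and PCDH9 one of -0.99 (SE 0.27). PCDH9 was barely detected, at most at 0.93 CPM in CTRL and 0.60 in CEBPD libraries. At 70 to 80 Mb the median of 14 members was 0.0050, with 7 members on each side of 0. No member starts between 80 and 90 Mb. The 3 distal bins stood at 0.16 (90 to 100 Mb, 15 members), 0.30 (100 to 110 Mb, 15 members) and 0.17 (110 to 120 Mb, 22 members). With bins of 5 Mb, the unbroken run of bins below 0 also ended at 70 Mb, but the bins from 55 to 70 Mb held 1 member each. The bin from 70 to 75 Mb (4 members) stood at 0.067, and that from 75 to 80 Mb (10 members) was below 0 again, at -0.073. The running median of 9 neighbouring members first turned positive somewhat farther on, at MYCBP2, and dipped below 0 once more between CUL4A and TFDP1.

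**Figure D2:**
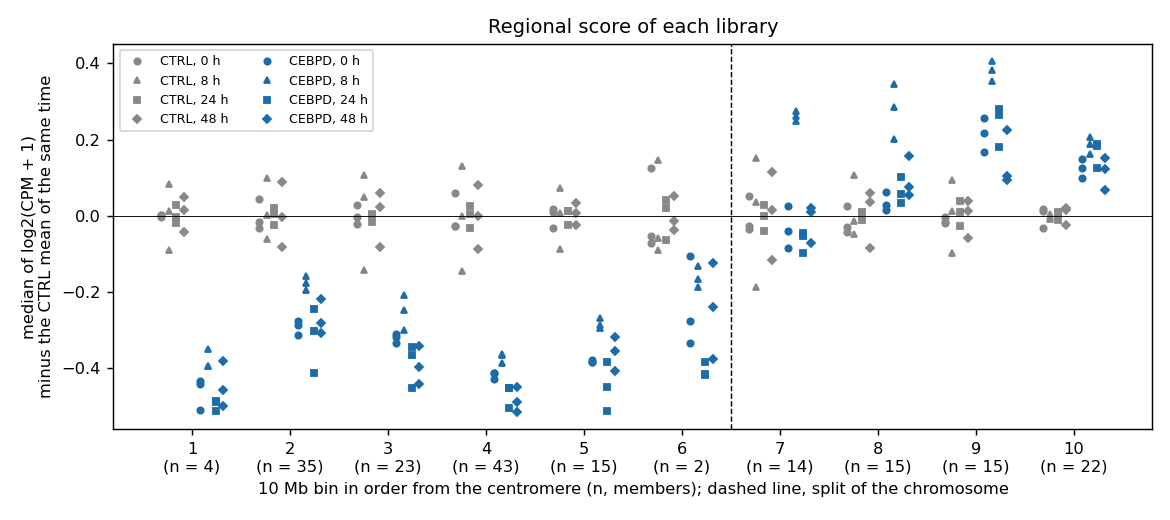
Score of each library in the 10 bins of 10 Mb that hold members, in order from the centromere (bin 6 starts at 60 Mb, bin 7 at 70 Mb and bin 8 at 90 Mb). Grey points are CTRL and blue points CEBPD libraries, with a marker for each time. In bin 4 the CEBPD libraries sit between -0.51 and -0.36 and the CTRL libraries between -0.15 and 0.13, and in bin 9 they sit between 0.094 and 0.41 and between -0.097 and 0.094.

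The bin from 40 to 50 Mb held 35 members called lower and 4 called higher, and that from 100 to 110 Mb held none called lower and 11 called higher. Of the 296 bins of 10 Mb over all chromosomes with at least 5 tested protein-coding genes, 106 had a median below 0. In that order the 40 to 50 Mb bin was the 11th from the lowest and the 100 to 110 Mb bin the 4th from the highest. By chromosome, the median of chromosome 13 was the 4th lowest of 23, after chromosomes 9 (-0.43), 20 (-0.28) and 18 (-0.27). Neighbouring members had fold changes of one sign in 134 of 187 pairs (71.7%), the 3rd highest share after chromosomes 18 (78.4%) and 9 (76.2%). The longest run of one sign spanned 22 members. Runs were longer on chromosomes 9 (57 genes), 14 (44 genes) and 20 (40 genes), and reached at most 21 genes, on chromosome 2, among the rest. Chromosome 13 thus was one of several chromosomes with such a difference between the lines.

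**Figure D3:**
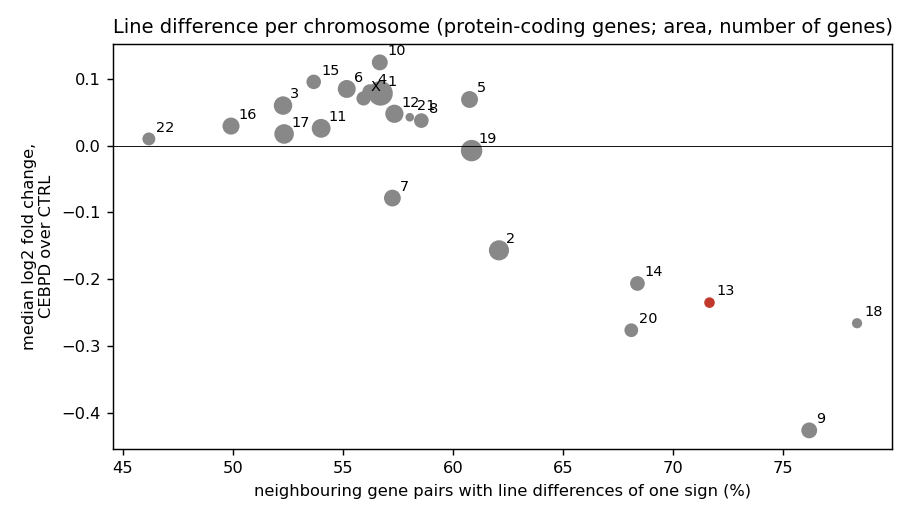
Median log2 fold change between the lines against the share of neighbouring protein-coding gene pairs with differences of one sign, for the 23 chromosomes. Point area follows the number of genes, and chromosome 13, in red, lies at 71.7% and -0.24, near chromosomes 14, 18 and 20.

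Genes of chromosome 13 that are not protein-coding were not used by the rule. Of 75 such genes tested below 70 Mb, 23 were called lower, 8 higher and 44 not called, with a median of -0.23. Of 33 beyond 70 Mb, 4 were called lower, 10 higher and 19 not called, with a median of 0.074. Among such genes of other chromosomes 13.9% were called lower and 18.2% higher. All 6 bins up to 70 Mb had medians below 0 for these genes too, from -0.12 to -0.41, whereas beyond 70 Mb the medians ran from -0.11 to 0.19. Many of these genes overlap members, and since no strand setting of the counting is stated, shared reads cannot be told apart. All 8 called higher below 70 Mb are processed pseudogenes, as are some of those called lower there, such as FTH1P7 and DGKZP1. Whether their reads came from parent genes elsewhere was not tested.

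Among members as well, 72 share exonic sequence with a gene on the other strand and 30 with one on the same strand, and 101 have no overlap. For those 101 the median was -0.27. The bin from 70 to 80 Mb then turned to -0.09, and the bin from 110 to 120 Mb fell to 0.036.

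Called members were also counted by level, beside the backgrounds of 29.1% lower and 29.9% higher. Below 70 Mb, 82 of the 90 members with a mean of 10 CPM or more were called lower and 2 higher, while of the 32 members under 10 CPM 17 were called lower and 9 higher. Beyond 70 Mb, 31 of 54 members at or above 10 CPM were called higher and 8 lower, and of the 12 members under 10 CPM 6 were called higher and 1 lower.

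TPT1, which encodes the translationally controlled tumour protein and lies at chr13:45333471-45341284, had the highest level per exon length of all members, 158 CPM per kb in the mean of all libraries. Its CPM ranged from 1214 to 1534 in CTRL (median 1356) and from 796 to 1025 in CEBPD libraries (median 907), without overlap. The log2 fold change was -0.58 (SE 0.018). HSPH1, a chaperone of the HSP110 family, ranged from 590 to 927 CPM in CTRL and from 475 to 737 in CEBPD cells, which overlap over all times but not within any of them. TSC22D1, a leucine zipper transcription regulator, stood between 225 and 311 CPM in CTRL and between 134 and 193 in CEBPD cells, a log2 fold change of -0.66 (SE 0.016). In TPT1 and TSC22D1 all CEBPD libraries thus lay below all CTRL libraries.

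RB1, the retinoblastoma protein that restrains entry into S phase, and BRCA2, which acts in recombination repair of DNA breaks, followed the region. RB1 (chr13:48303744-48599436) ranged from 94.6 to 158 CPM in CTRL with a median of 129 and from 81.6 to 103 in CEBPD cells with a median of 89.7. Its log2 fold change was -0.49 (SE 0.046), and it was called lower at 0, 24 and 48 h but not at 8 h. BRCA2 (chr13:32315086-32400268) had medians of 122 CPM in CTRL and 84.2 in CEBPD cells, a log2 fold change of -0.47 (SE 0.058), and was likewise called lower at 3 times. Both overlapped between the lines at 8 h.

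The largest deficits among members called lower at all 4 times without overlap between the lines are given here, and these genes lie below 70 Mb. Members outside this choice reached log2 fold changes of -2.21 at 30 to 40 Mb and -1.58 at 40 to 50 Mb. THSD1, a membrane protein with a thrombospondin domain (chr13:52377167-52416373), lay between 121 and 142 CPM in CTRL and between 25.05 and 29.0 in CEBPD libraries, a log2 fold change of -2.32 (SE 0.020). ATP7B, the copper-transporting ATPase of Wilson disease, had CTRL values of 31.7 to 36.4 CPM and CEBPD values of 11.3 to 24.3. CAB39L, a relative of the MO25 scaffold of the kinase LKB1, had medians of 19.7 in CTRL and 9.24 CPM in CEBPD cells, and ITM2B, a membrane protein cleaved by furin, medians of 84.6 and 45.4. Lower in level, SLC46A3, a lysosomal transporter, stood at a median of 7.82 against 2.28 CPM and NEK5, a NIMA-related kinase, at 4.08 against 1.25. PDX1, a homeobox factor of the pancreas, reached at most 1.59 CPM in CTRL and 0.40 in CEBPD cells, with single counts of 1 to 27.

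A minority of members below 70 Mb went against their neighbours. WDFY2, an endosomal protein with a FYVE domain (chr13:51584455-51767709), ranged from 23.2 to 28.0 CPM in CTRL and from 71.2 to 97.4 in CEBPD cells, a log2 fold change of 1.68 (SE 0.028), while its neighbours INTS6 and DHRS12 were lower. FOXO1, a forkhead factor inhibited by AKT, had a median of 2.28 against 6.72 CPM and no overlap between the lines. CDX2, an intestinal homeobox factor, had medians of 2.38 and 3.77 CPM and lies next to PDX1, which differed the other way. The remaining 8 of the 11 were WASF3, FRY, LHFPL6, ENOX1, LACC1, PHF11, FAM124A and EEF1AKMT1, and all but EEF1AKMT1 had a median under 10 CPM in both lines. WASF3, a WAVE regulator of actin, and LHFPL6 reached at most 7 and 6 counts in any CTRL library. Both thus met the count minimum only through CEBPD libraries. Those 8 genes, other than WASF3 and ENOX1, were named after their values were seen.

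Beyond 70 Mb, ITGBL1, an integrin beta-like secreted protein (chr13:101452593-101720856), was near the floor of 3 counts in CTRL cells. It stood between 0.053 and 0.60 CPM in CTRL, at most 11 counts, and between 23.7 and 41.6 CPM in CEBPD cells. Since its CTRL counts were 2, 2 and 2 at 8 h, no fold over the 4 times is given. It met the count minimum mainly through the CEBPD libraries. Within CEBPD cells it was highest at 0 h, at 41.6, 40.7 and 41.0 CPM, and stood at 23.7, 25.9 and 28.3 at 48 h, a fall called by edgeR of 0.66 on the log2 scale (SE 0.09). IRS2 (chr13:109752695-109786583) ranged from 35.8 to 63.0 CPM in CTRL and from 84.5 to 119 in CEBPD cells, a log2 fold change of 1.01 (SE 0.022). In both genes all 12 CEBPD libraries lay above all 12 CTRL libraries.

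Among abundant distal members some were separated in every library and others overlapped. IPO5, a nuclear import receptor, ranged from 359 to 438 CPM in CTRL and from 462 to 528 in CEBPD cells. MYCBP2, a large ubiquitin ligase, ranged from 120 to 134 and from 158 to 189, DIS3, the catalytic exosome subunit, from 89.3 to 117 and from 118 to 147, and TPP2, a cytosolic peptidase, from 102 to 122 and from 133 to 152. In these 4 genes the lines did not overlap. RBM26, an RNA-binding protein, ranged from 109 to 143 CPM in CTRL and from 126 to 162 in CEBPD cells, and STK24, a kinase of the STE20 group, from 154 to 178 and from 159 to 191. TFDP1, the partner of E2F factors, ranged from 137 to 200.1 and from 143 to 204 and was not called. RASA3, a GTPase-activating protein for RAS and RAP, had medians of 24.4 and 38.2 CPM. GRTP1, a predicted RAB GTPase-activating protein, was called higher at each time, at medians of 1.52 and 4.01 CPM, with overlap between the lines over all times.

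Some distal members were lower in CEBPD cells. LAMP1, a lysosomal membrane glycoprotein, ranged from 192 to 224 CPM in CTRL and from 148 to 188 in CEBPD cells. TMCO3, a predicted cation exchanger, ranged from 60.2 to 69.9 and from 44.9 to 49.3. MBNL2, a splicing regulator, had medians of 143 and 121 CPM. The basement membrane collagen genes COL4A1 and COL4A2, which lie head to head and share a promoter, did not move alike, with log2 fold changes of 0.02 (SE 0.036, not called) and -0.34 (SE 0.041, called at 3 times), where the difference between both genes was not tested. MCF2L, a guanine nucleotide exchange factor, had medians of 2.68 and 1.32 CPM. FARP1, TBC1D4 and TM9SF2 were also called lower, and these genes and MCF2L were named after their values were seen.

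**Figure D4:**
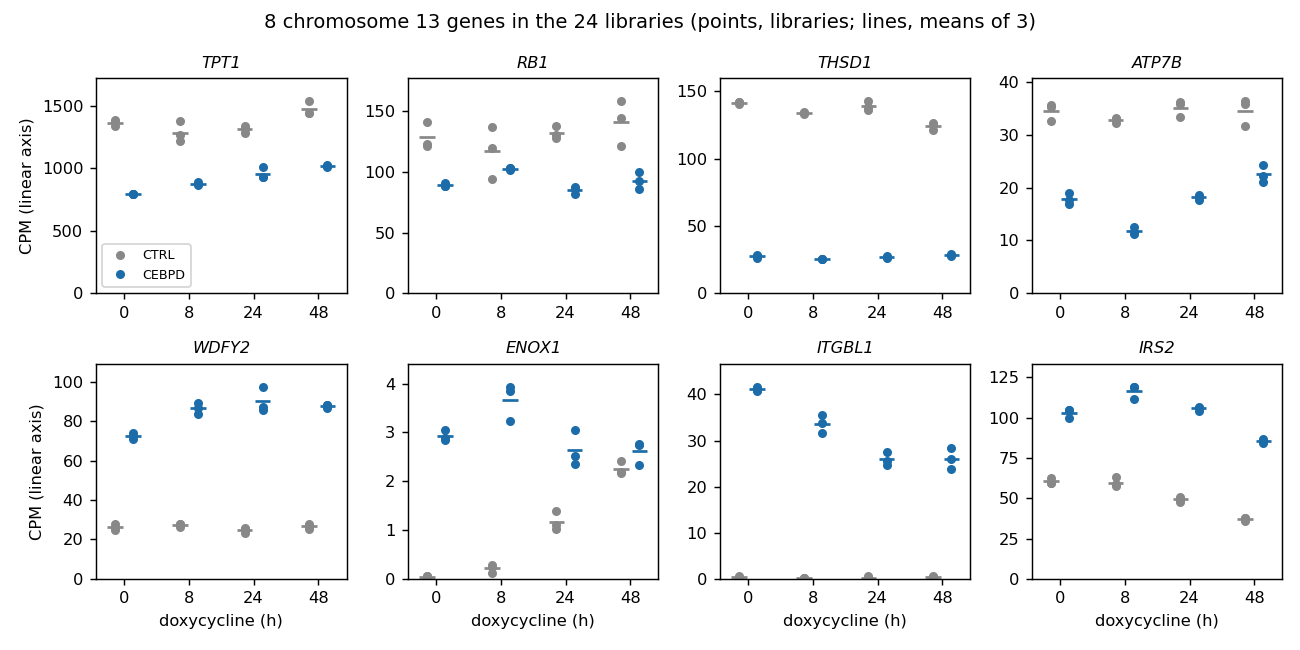
CPM of 8 members in the 24 libraries by hours of doxycycline, on linear axes that start at 0. Grey points are CTRL libraries, blue points CEBPD libraries and short lines the means of 3. THSD1 stays near 121 to 142 CPM in CTRL and 25.05 to 29.0 in CEBPD cells at all times, whereas ENOX1 climbs in CTRL from at most 0.060 to at least 2.16 CPM.

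By role, 146 members were placed in lists that were drawn up with earlier results known. The counts are given below and beyond 70 Mb. Of 19 transcription and chromatin members below 70 Mb, 15 were called lower and 3 higher, and of 4 beyond it none lower and 3 higher. Among genome maintenance and mitosis members, all 12 below 70 Mb were called lower, and of 8 beyond it 5 were called higher. Of 16 ubiquitin, folding and glycosylation members below 70 Mb 15 were called lower, and of the 10 beyond it 5 were called higher. The 11 mitochondrial and metabolic members below 70 Mb were all called lower, and of 5 beyond it 2 were called higher and none lower. In RNA processing 8 of 10 were lower below 70 Mb and 4 of 5 higher beyond it, including DIS3 and ARGLU1. In membrane and nuclear trafficking 9 of 11 members below 70 Mb were lower and 1, WDFY2, higher, while of the 9 beyond it 3 were lower and 3 higher.

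Of 5 receptor, ligand and matrix members below 70 Mb 2 were called lower and 1 higher, and of 5 beyond it 1 lower and 3 higher. Of 7 cytoskeletal members below 70 Mb 4 were called lower and 2 higher, and of 6 beyond it 2 lower and 4 higher. Of 4 channel and transporter members below 70 Mb, ATP7B and SLC46A3 among them, 3 were called lower and none higher, and of 3 beyond it 1 lower and 1 higher. These counts stand beside backgrounds of 29.1% lower and 29.9% higher among all genes. Over all members, 99 of 122 were called lower below 70 Mb and 37 of 66 higher beyond it. The lists were not tested apart from this regional share.

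The change of the line difference with time was not used to choose the members. In the F test of 3 interaction coefficients in the 24-library model 20 of 188 members were called, which is 10.6% against 11.0% of all genes, so the share of members called was near the background. Of the 20, 13 lie below 70 Mb and 7 beyond it. Without replicate 3 of CTRL at 8 h 39 members were called, and without a filter on low counts 41. The shares over all genes in those fits are not given, so these counts have no background beside them.

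ENOX1, a plasma membrane hydroquinone oxidase, had the smallest interaction p (edgeR FDR 1.4e-10). Its counts in CTRL cells were 1, 1 and 0 at 0 h, all below the floor of 3 counts that a count of 0 allows, so no fold is given against that group. They were 5, 2 and 5 at 8 h, 26, 24 and 22 at 24 h and 44, 41 and 41 at 48 h. In CEBPD cells the values were 2.88, 2.84 and 3.04 CPM at 0 h and 2.32, 2.77 and 2.75 at 48 h. Transcript levels thus rose in CTRL cells from 24 h on, while none of the 3 times was called against 0 h in CEBPD cells. ENOX1 shares exonic sequence with a gene on the other strand.

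ATP7B differed from its own 0 h level in CEBPD cells and not in CTRL cells (edgeR FDR of the interaction 3.3e-06). It stood at 19.0, 17.0 and 17.6 CPM at 0 h in CEBPD cells, at 11.5, 11.3 and 12.5 at 8 h, at 18.6, 18.3 and 17.6 at 24 h and at 24.3, 22.3 and 21.1 at 48 h. It fell by 0.61 on the log2 scale at 8 h (SE 0.08) and rose by 0.34 at 48 h (SE 0.07), and both calls held in each of 24 fits without a library. All CTRL libraries stayed between 31.7 and 36.4 CPM.

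RCBTB1, a protein with RCC1 and BTB domains, rose more in CTRL than in CEBPD cells (edgeR FDR of the interaction 4.0e-05). Its CTRL values were 21.2, 20.7 and 19.6 CPM at 0 h and 37.3, 41.3 and 40.7 at 48 h, against 17.2, 17.2 and 17.5 and then 21.1, 22.9 and 21.5 in CEBPD cells. PARP4, an ADP-ribosyltransferase of vault particles, was 193, 199 and 188 CPM at 0 h in CTRL and 143, 150 and 146 at 48 h, against 163, 164 and 158 and then 146, 146 and 146 in CEBPD cells. At 48 h its levels in both lines therefore overlapped, with a log2 fold change of 0.0016 (SE 0.045).

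IRS2 fell in CTRL cells from 59.7, 59.2 and 62.7 CPM at 0 h to 35.8, 37.8 and 37.8 at 48 h. In CEBPD cells it was 99.8, 105 and 105 at 0 h and 87.1, 84.5 and 85.6 at 48 h. The falls, 0.71 and 0.27 on the log2 scale, differed between the lines in the interaction (edgeR FDR 5.3e-05). TPT1 rose in CEBPD cells from 796, 797 and 796 CPM at 0 h to 1018, 1008 and 1025 at 48 h, a log2 fold change of 0.35 (SE 0.04), while CTRL cells stood at 1385, 1372 and 1337 and at 1445, 1534 and 1443 and were not called. The line difference in TPT1 therefore went from -0.79 at 0 h to -0.54 at 48 h, with an interaction FDR of 0.00026 in edgeR.

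Against 0 h, few members changed in CTRL cells at 8 h (4 higher and 5 lower of 188, with backgrounds of 2.83% and 4.39%) and at 24 h (2 higher and 4 lower, with backgrounds of 1.63% and 1.79%). At 48 h 35 were higher and 27 lower, with backgrounds of 16.9% and 16.3%. In CEBPD cells the counts were 28 higher and 9 lower at 8 h, beside backgrounds of 8.28% and 10.1%. They were 5 higher and 8 lower at 24 h (4.97% and 5.45%), and 34 higher and 17 lower at 48 h (14.8% and 13.9%). GRTP1 and FOXO1 were called higher and HSPH1, EFNB2 and IRS2 lower at 48 h in each line. EFNB2, the ligand ephrin-B2, stood at 9.14, 8.62 and 8.42 CPM at 0 h in CTRL and at 3.54, 4.35 and 4.11 at 48 h, and in CEBPD cells at 14.8, 15.0 and 14.2 and at 8.27, 7.44 and 8.24.

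At 8 h the members as a group stood higher in CEBPD cells, and so did other genes of low GC content. The median log2 change of members at 8 h was 0.12 in CEBPD and -0.02 in CTRL cells. Members are AT-rich, with a median transcript GC content of 41.7% against 48.3% for all tested protein-coding genes. Among the 10% of protein-coding genes with the lowest GC content the median change at 8 h in CEBPD cells was 0.20, and among the 10% with the highest it was -0.24. Taken relative to genes of like GC content (10 classes), an alternative added after the data were seen, the median change of members at 8 h was 0.016. The part of GC content in the calls of single members was not tested. The count of 28 members higher at 8 h fell to 15 without replicate 1 and to 17 without replicate 2 of the CEBPD cells at 8 h, and to 18 and 16 without replicates 1 and 3 of the CEBPD cells at 0 h.

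Libraries differed in this tilt within groups too. The median over the 10% of genes lowest in GC content minus that over the 10% highest, relative to the 0 h mean of the line, was 0.37, 0.41 and 0.38 in the CEBPD libraries at 8 h and -0.27, 0.045 and 0.31 in the CTRL libraries at 8 h. The median over members was 0.10, 0.13 and 0.10 in those CEBPD libraries and -0.10, -0.0033 and 0.081 in those CTRL libraries. Relative to genes of like GC content the median line difference of members was -0.27 in the mean of 4 times, -0.25 at 0 h, -0.23 at 8 h, -0.27 at 24 h and -0.28 at 48 h. By bin it was -0.52 at 40 to 50 Mb and 0.28 at 100 to 110 Mb.

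**Figure D5:**
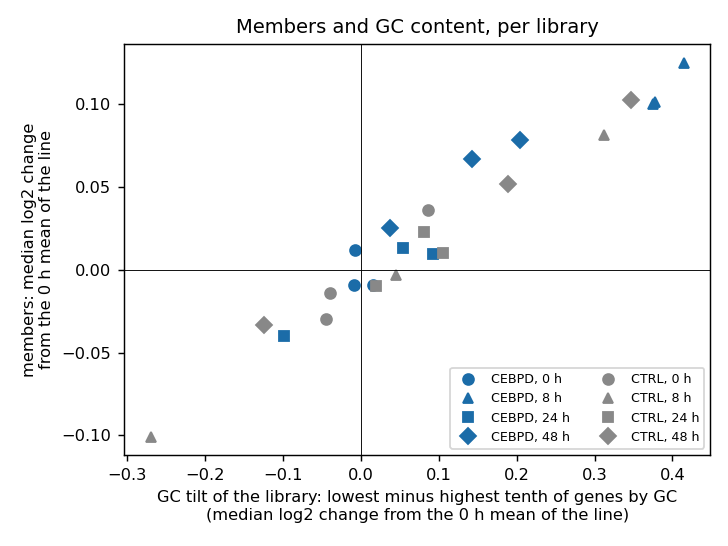
Median log2 change of the members from the 0 h mean of their line against the GC tilt of the library (median change of the 10% of protein-coding genes lowest in GC content minus that of the 10% highest), one point per library. The libraries run along a diagonal from CTRL at 8 h, replicate 1 (-0.27 and -0.10), to CEBPD at 8 h, replicate 2 (0.41 and 0.13).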

How the data were processed

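Ribosomal RNA-depleted total RNA of 24 MIA PaCa-2 samples was sequenced (HiSeq4000). The authors trimmed reads with Trimmomatic, mapped them with HISAT2 to GRCh38 (Ensembl) and counted reads per gene with HTSeq. The submitters' processing notes give Trimmomatic 0.36 and HISAT2 2.3.4.3, and the study's methods give other versions of both. The strand setting is not given in the sources used here. The deposited values are raw counts per gene, 60675 identifiers by 24 libraries, and totals ran from 12731237 to 22598595. Of the identifiers 56558 matched GENCODE 44, which gave biotype and GRCh38 position. Members and gene lists were chosen with earlier results of these data known.

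Counts were scaled by TMM, filtered by filterByExpr and tested with edgeR 4.0.16 (quasi-likelihood, Benjamini-Hochberg over all genes, FDR 0.01) in R 4.3.3, after tests on simulated data. Each line contrast used the 6 libraries of its time. One model of 24 libraries gave the mean of the 4 line differences, the interaction and the time contrasts. Standard errors (SE) were derived as the absolute log2 fold change divided by the square root of the quasi-likelihood F. Library scores used log2(CPM + 1), a pseudocount of 1. GC content was that of the longest GENCODE transcript. Floors of 3 counts cover counting error only. Alternatives were DESeq2 1.42.0, analysis of variance, other filters, scaling, bins and members, a replicate block and leaving out each library. Named were the 3 most abundant members per 10 Mb bin, the 6 largest changes each way among members called at all 4 times without overlap, the 4 smallest interaction p, the members beside sign changes of the running median, and RB1, BRCA2, FOXO1, CDX2, PDX1, COL4A1, COL4A2, WASF3, RGCC (no member), IRS2 and EFNB2. Some genes that this rule names are not reported here. The alternative relative to GC content was added after the data were seen.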

Additional observations from a re-analysis of the deposited data

Results flagged for a closer look

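For 12 of the 51 named members the difference between the lines changed with time, by the edgeR test of the interaction of line and time in 24 libraries. Such calls were made for 11.0% of all genes. That share is no measure for these 12, since ENOX1, ATP7B, PARP4 and RCBTB1 were named for their small interaction p. The causes were not tested. The FDR was 1.4e-10 for ENOX1, 3.3e-06 for ATP7B, 3.7e-05 for PARP4, 4.0e-05 for RCBTB1 and 5.3e-05 for IRS2. It was 0.00016 for HSPH1, whose line difference was -0.32 at 0 h and -0.61 at 24 h. TPT1 had an FDR of 0.00026 and EFNB2 one of 0.0013, with line differences in EFNB2 of 0.74, 0.47, 0.23 and 0.99 at 0, 8, 24 and 48 h. TSC22D1 had an FDR of 0.0024 and line differences of -0.73, -0.75, -0.52 and -0.67. The calls of these 9 genes held in each of 24 fits that left out 1 library, but that of TSC22D1 was lost with no filter on low counts (FDR 0.020).

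The other 3 calls were lost in some of those fits. THSD1 (FDR 0.0025) was not called in 3 of 24, without CEBPD at 48 h replicates 1 and 3 and CTRL at 48 h replicate 2, with a highest FDR of 0.013, and with no filter on low counts (FDR 0.013). WDFY2 (FDR 0.0063) was not called in 4 of 24, without CEBPD at 0 h replicate 3, CEBPD at 24 h replicate 3, CTRL at 0 h replicate 1 and CTRL at 24 h replicate 1 in turn, with a highest FDR of 0.021, nor by analysis of variance (FDR 0.010). FOXO1 (FDR 0.0064) was not called in 9 of 24, those without CEBPD at 0 h replicate 2, at 8 h replicate 2, at 24 h replicate 3 or at 48 h replicates 1 or 3, or CTRL at 8 h replicate 1, at 24 h replicate 3 or at 48 h replicates 1 or 3. Its highest FDR was 0.019, and it was not called by DESeq2 (FDR 0.039) or with no filter on low counts (FDR 0.077).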

How the results depend on the processing

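The median line difference of members stayed below 0 at every time under every alternative run, and no named gene changed direction. Replicate numbers did not pair the samples, and with a replicate block 108 members were lower, 48 higher and 21 called for the interaction. Analysis of variance on log2(CPM + 1) gave 17 higher and 21 lower at 8 h, 16 higher at 24 h, 37 lower and a median of -0.27 at 48 h, and bin medians of -0.43 (40 to 50 Mb) and -0.26 (60 to 70 Mb). A minimum of 10 counts in every library gave a median of -0.17 at 8 h, 1 member higher at 24 h in CTRL cells, and bin medians of -0.24 (60 to 70 Mb) and 0.25 (100 to 110 Mb). With no filter 41 members were called for the interaction and 13 lower at 24 h in CEBPD cells. Members without exon overlap had medians of -0.27 in the mean of 4 times and -0.16 at 8 h, 6.93% called for the interaction and 0.99% higher at 8 h in CTRL cells. Their bin medians were -0.40, -0.45 and -0.24 from 10, 40 and 60 Mb, 0.22 from 90 Mb and 0.036 from 110 Mb, and the bin from 70 Mb reversed to -0.090. Relative to genes of like GC content, chosen after seeing the data, medians were -0.23 at 8 h, -0.27 at 24 h, -0.28 at 48 h, -0.27 in the mean and -0.52 from 40 to 50 Mb. The causes of these shifts were not tested. Shares over all genes are not given for the alternative fits, so their counts of members have no background beside them.

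Leaving out 1 library at a time, medians ran from -0.29 to -0.24 at 0 h, from -0.18 to -0.087 at 8 h, from -0.33 to -0.27 at 24 h and from -0.35 to -0.28 at 48 h. At 8 h from 19 to 37 members were higher and from 38 to 82 lower. The interaction called from 14 to 39. In CTRL cells from 2 to 8 were higher and from 3 to 10 lower at 8 h, and from 1 to 6 lower at 24 h. In CEBPD cells from 15 to 31 were higher at 8 h, from 2 to 8 higher at 24 h (2 or 3 without CEBPD at 0 h replicates 2 or 3 or at 24 h replicates 2 or 3), and from 15 to 28 lower at 48 h (28 and 26 without CTRL at 8 h replicates 1 and 3). Bin medians ran from -0.73 to -0.55 at 60 to 70 Mb, from -0.03 to 0.04 at 70 to 80 Mb and from 0.14 to 0.21 at 110 to 120 Mb. Totals of 12731237 to 22598595 counts limit members under 10 CPM most.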
